A study of Mus musculus with 9 samples.

Results

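Glycolysis and the pentose phosphate pathway were followed across 9 RNA-seq libraries of mouse peritoneal macrophages through 40 genes, of 47729 genes in the count tables. The genes were taken from a list of transporters, enzymes and regulators of both pathways, and each symbol was matched through the GENCODE mouse M21 annotation to the Ensembl identifier in the tables. The rule names genes by pathway and uses no expression value, although the members were chosen with earlier results of these data known. All 40 passed the filter on low counts and were tested. The 3 populations, with 3 libraries each, were converted, resident and monocyte-derived macrophages, all sorted by flow cytometry. The mice were Cx3cr1CreERT2-IRES-EYFP/+ Rosa26-stopfl-tdTomato/+, a line in which tamoxifen switches on a red reporter in cells that express Cx3cr1. Every mouse, whatever its group, received 5 µg IL-4 bound to 25 µg of an antibody against it. These injections into the cavity were repeated on alternate days over the last 4 days and drive alternative activation. No library came from mice without IL-4, so the pathway is compared here only between IL-4-exposed populations. Converted macrophages came from mice given 2 ml thioglycollate, which inflames the cavity and recruits monocytes from blood, and a tamoxifen diet for 10 weeks. Resident macrophages came from mice for which the labels list no other treatment, and monocyte-derived macrophages were harvested on day 4 after 2 ml thioglycollate. Tamoxifen is stated for the converted group alone. The sources used here give no age, sex or sort gate, and no word on whether each library is a separate mouse. The p-values therefore rest on a spread between libraries that may be technical only.

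Glycolysis takes up glucose through GLUT transporters, traps it by phosphorylation at hexokinase, commits it at phosphofructokinase and turns it into pyruvate in a shared series of lower steps. Pyruvate is then reduced to lactate and exported, or oxidised in mitochondria, where pyruvate dehydrogenase kinases hold the entry enzyme back. The pentose phosphate pathway branches off after hexokinase: its oxidative arm makes NADPH, and its non-oxidative arm exchanges sugars between ribose phosphate and glycolysis. In macrophages, inflammatory and hypoxic stimuli are known to raise glycolysis through the transcription factor HIF-1α, while alternative activation by IL-4 relies more on oxidative metabolism.

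Depth ranged between 15220884 and 20496258 reads in genes per library. Levels are given as reads scaled to library size (CPM) after TMM scaling, and changes as log2 fold changes ± SE from 1 edgeR fit of all libraries. Genes were called at an adjusted p under 0.05, with the adjustment taken over the 13223 genes tested. All 8 macrophage markers were detected in every group, but not evenly. Against monocyte-derived macrophages 3 were called higher and 2 lower in each comparison, beside 50.7% of all genes called. Adgre1 was 8.96-fold higher in converted and 8.68-fold higher in resident macrophages. Lyz2 was 3.19-fold and 4.21-fold lower, and Fcgr1 34.3-fold and 29.4-fold lower. The 6 cavity macrophage markers summed to 8670 to 9871 CPM in converted and 8674 to 9485 CPM in resident libraries. In monocyte-derived libraries their sum was 193 to 198 CPM. Markers of other cells moved with the groups. The 10 B-cell markers summed to 78.7 to 188 CPM in converted, 1162 to 1505 CPM in resident and 34.1 to 81 CPM in monocyte-derived libraries. The 10 neutrophil markers summed to 11.02 to 20.3 CPM in converted, 17.5 to 18.2 CPM in resident and 60.6 to 106 CPM in monocyte-derived libraries. Scarcer markers moved too: the 6 of NK cells summed to 1.595 to 2.47 CPM in converted, 15.3 to 24.4 CPM in resident and 16.5 to 94.5 CPM in monocyte-derived libraries. The 6 of dendritic cells summed to 4.69 to 4.95 CPM in converted, 10.9 to 13.3 CPM in resident and 10.8 to 35.2 CPM in monocyte-derived libraries. The 5 of mast cells were at 1.01 to 2.84 CPM in converted, 7.64 to 11.3 CPM in resident and 6.995 to 13.9 CPM in monocyte-derived libraries, and the 8 of T cells at 2.87 to 6.304 CPM in converted, 16.99 to 31.1 CPM in resident and 4.05 to 18.6 CPM in monocyte-derived libraries. The part of these scarcer markers in the results was not tested. Xist was at 0 to 0.0979 CPM in converted and resident libraries and at 41.0 to 101 CPM in monocyte-derived libraries. The Y-linked Ddx3y had 84.6 to 96.1 CPM in the converted and resident and no read in the monocyte-derived libraries, so sex and group cannot be told apart in either comparison with monocyte-derived macrophages. The 3 monocyte-derived libraries differed more from each other than those of the other groups did. Library 1 of that group stood furthest apart, with a chi-square of 73.3 to 103 per degree of freedom against its group mates, compared with 17.1 to 24.1 among converted and 5.99 to 9.16 among resident libraries. In sorted bulk RNA a lower level can stem from fewer cells of a kind or from less RNA per cell, which cannot be told apart here.

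Most of the pathway was set at a different level in converted and resident macrophages than in monocyte-derived ones, and the levels ran both ways along it. In converted against monocyte-derived macrophages 10 members were called higher and 21 lower, 77.5% of the 40, beside 50.7% of all genes tested (25.8% higher and 24.9% lower). Resident against monocyte-derived macrophages gave 10 higher and 24 lower, 85.0% of the members, beside 50.7% of all genes (25.7% higher and 24.9% lower). The share of members called lower was thus above the background in both comparisons and the share called higher was 25.0%, close to it. Because the members were chosen with earlier results of these data known, these shares are a description and not a test. Among members with a mean of at least 10 CPM, 19 of 32 were lower in converted and 22 of 32 in resident macrophages, beside 27.6% and 30.3% of the 8467 genes at that level. The median log2 fold change of the members was -0.37 in converted and -0.45 in resident macrophages, against -0.01 and 0.00 over all genes. Both comparisons share the monocyte-derived libraries, so they are not independent. The 10 members called higher in both were Hk1, Pfkl, Pfkm, Pfkfb2, Pdk2, Pdk4, G6pdx, Pgd, Rpia and Taldo1. The 21 called lower in both ranged over glucose uptake (Slc2a1, Slc2a3), hexokinase (Hk2, Hk3), most of the lower pathway, lactate export (Slc16a3), Fbp1, Pgls and Hif1a. Summed over the 16 enzymes between hexokinase and pyruvate kinase, transcripts made up 7563 ± 178 CPM in converted, 7409 ± 134 CPM in resident and 11337 ± 317 CPM in monocyte-derived libraries (SD, n = 3 each). The 7 pentose phosphate enzymes together summed higher, to 2078 ± 94.1 CPM in converted, 2016 ± 63.8 CPM in resident and 1472 ± 70.7 CPM in monocyte-derived libraries. Each of these sums in converted and resident libraries lay outside the range of the monocyte-derived ones. Most of the pentose phosphate difference was that of Taldo1: without it the sums were 1240 ± 47.9 CPM in converted, 1214 ± 29.3 CPM in resident and 1160.4 ± 20.2 CPM in monocyte-derived libraries, and resident library 3 (1181 CPM) lay below monocyte-derived library 1 (1183 CPM).

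**Figure D1:**
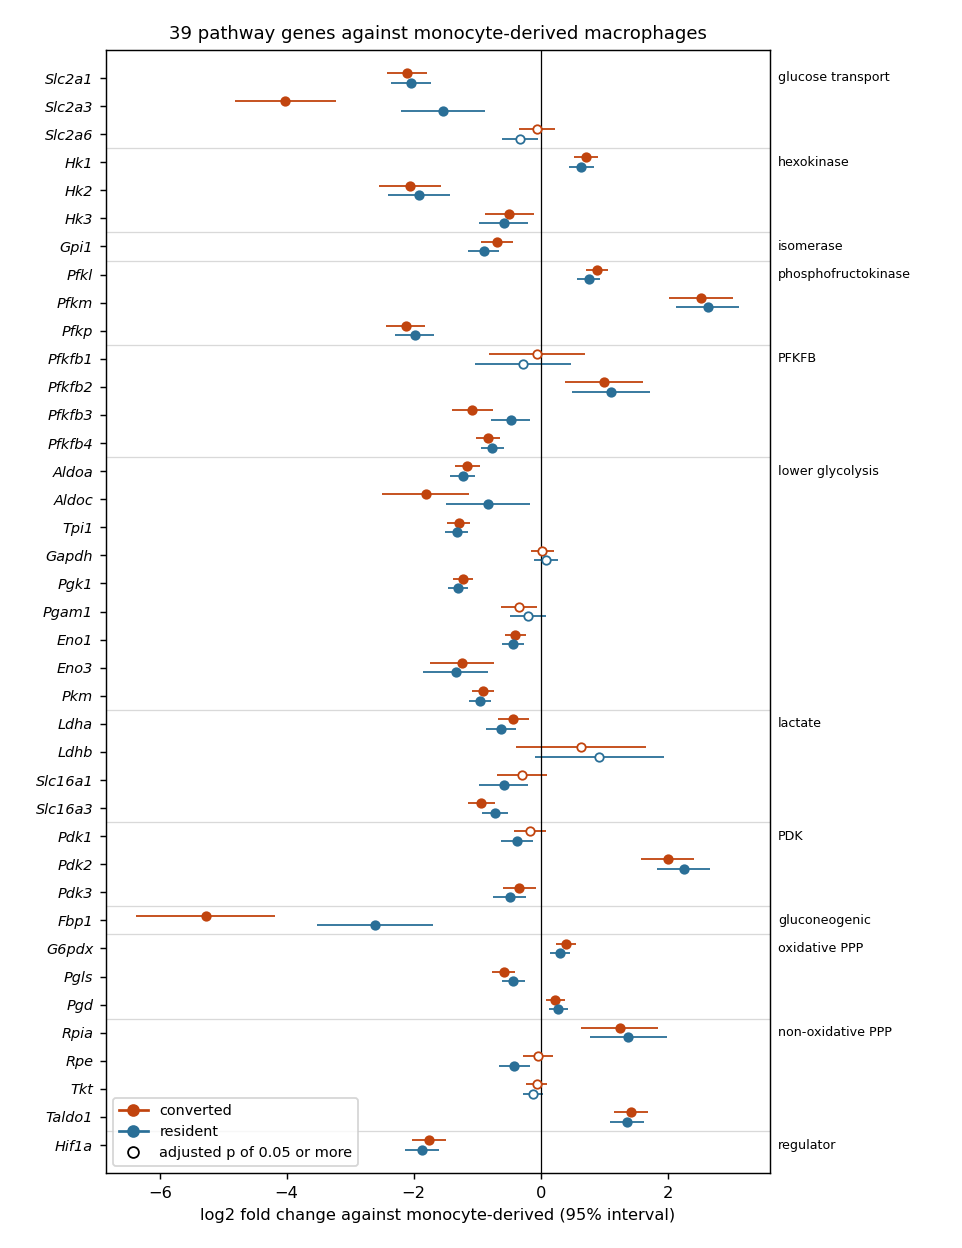
Log2 fold changes with 95% intervals of 39 members in converted (red) and resident (blue) against monocyte-derived macrophages, ordered by role; filled points have an adjusted p under 0.05. Pdk4 is left out because it had 3 reads in all monocyte-derived libraries together; glucose transport, lower glycolysis and Hif1a lie mostly to the left, and Hk1, Pfkl, Pfkm, Pdk2 and Taldo1 to the right.

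Of the glucose carriers, the basal transporter Slc2a1 (GLUT1) and the high-affinity Slc2a3 (GLUT3) were lower in converted and resident macrophages. Slc2a1 had 46.2, 42.3 and 47.7 CPM in converted, 55.5, 41.5 and 45.4 CPM in resident and 159.6, 209 and 216 CPM in monocyte-derived libraries, 4.29-fold lower in converted and 4.101-fold lower in resident macrophages with no overlap. Its log2 fold change was -2.10 ± 0.14 in converted and -2.04 ± 0.14 in resident macrophages (edgeR adjusted p = 1.91e-06 and 2.64e-06). Slc2a3 was rare everywhere, at 0.598, 0.578 and 0.619 CPM in converted, 2.42, 3.93 and 3.72 CPM in resident and 12.5, 5.897 and 11.01 CPM in monocyte-derived libraries. The 3 groups did not overlap for Slc2a3, with converted the lowest, and its log2 fold change was -4.02 ± 0.36 in converted and -1.54 ± 0.30 in resident macrophages (edgeR adjusted p = 1.18e-05 and 0.00168). Slc2a6 (GLUT6), a carrier found on lysosomal membranes, had 95.5, 76.5 and 99.98 CPM in converted, 74.2, 72.3 and 79.2 CPM in resident and 80.5, 93.8 and 108 CPM in monocyte-derived libraries, and passed in neither comparison. Slc2a6 showed a log2 fold change of -0.05 ± 0.13 in converted and -0.32 ± 0.13 in resident macrophages (edgeR adjusted p = 0.757 and 0.0583). Without converted library 2 or monocyte-derived library 1, Slc2a6 was called lower in resident macrophages (edgeR adjusted p = 0.0382 and 0.0115). Per length of the exon union, Slc2a1 therefore supplied 31.5% ± 1.76 in converted, 36.1% ± 3.67 in resident and 64.4% ± 1.85 in monocyte-derived libraries of the carrier signal (SD, n = 3 each), and Slc2a6 most of the rest.

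The hexokinases, which phosphorylate glucose on entry, moved in opposite directions. Hk1, the widespread form bound to mitochondria, had 316, 329 and 317 CPM in converted, 298, 303 and 319 CPM in resident and 175, 199.9 and 214 CPM in monocyte-derived libraries. Hk1 gave a log2 fold change of 0.71 ± 0.09 in converted and 0.64 ± 0.08 in resident macrophages (edgeR adjusted p = 8.8e-05 and 0.000164). Hk2, the inducible form, had 15.7, 11.9 and 18.2 CPM in converted, 17.5, 17.3 and 15.7 CPM in resident and 43.6, 71.05 and 75.8 CPM in monocyte-derived libraries. Hk2 showed a log2 fold change of -2.06 ± 0.22 in converted and -1.91 ± 0.22 in resident macrophages (edgeR adjusted p = 4.16e-05 and 6.4e-05). Hk1 was thus higher and Hk2 lower in every converted and resident library than in any monocyte-derived one. Hk3, a form of myeloid cells, had 159.7, 149 and 161 CPM in converted, 163, 135 and 143 CPM in resident and 158, 276 and 227 CPM in monocyte-derived libraries and overlapped between groups. Its changes of -0.49 ± 0.17 in converted and -0.58 ± 0.17 in resident macrophages (edgeR adjusted p = 0.0358 and 0.0174) were near the threshold. The Hk3 call in converted macrophages was lost without any one of the 3 converted libraries, resident library 2 or 3, or monocyte-derived library 2 or 3 (edgeR adjusted p = 0.0505 to 0.116), and in resident macrophages without resident library 2 or 3 or monocyte-derived library 2 (adjusted p = 0.0554 to 0.067). Hk1 made up 45.5% ± 1.86 in converted, 45.7% ± 2.76 in resident and 25.2% ± 3.93 in monocyte-derived libraries of the hexokinase signal per length of the exon union. With the longest transcript as length these means were 59.4% in converted, 59.6% in resident and 37.1% in monocyte-derived libraries. Gpi1, which isomerises the hexokinase product, had 480.3, 506 and 453 CPM in converted, 430.1, 381 and 432 CPM in resident and 652, 809.8 and 856 CPM in monocyte-derived libraries and fell in both. Against monocyte-derived macrophages, Gpi1 had a log2 fold change of -0.69 ± 0.11 in converted and -0.90 ± 0.11 in resident macrophages (edgeR adjusted p = 0.000554 and 0.000103).

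Phosphofructokinase, the committing step, showed a change in the shares of its isozymes. The platelet-type gene Pfkp had 108, 145 and 134 CPM in converted, 140.2, 144 and 144 CPM in resident and 662, 474 and 558 CPM in monocyte-derived libraries. Against monocyte-derived macrophages, Pfkp had a log2 fold change of -2.13 ± 0.14 in converted and -1.98 ± 0.14 in resident macrophages (edgeR adjusted p = 1.62e-06 and 2.75e-06). The liver-type gene Pfkl had 651, 642 and 589.8 CPM in converted, 570.1, 574 and 568 CPM in resident and 313, 354 and 349 CPM in monocyte-derived libraries. For Pfkl the log2 fold change was 0.89 ± 0.08 in converted and 0.75 ± 0.08 in resident macrophages (edgeR adjusted p = 1.17e-05 and 3.5e-05). Every converted and resident library was thus lower in Pfkp and higher in Pfkl than any monocyte-derived library. The muscle-type Pfkm was scarce, at 11.8, 10.5 and 8.89 CPM in converted, 10.8, 11.2 and 11.7 CPM in resident and 2.4002, 1.68 and 1.29 CPM in monocyte-derived libraries, and rose by 2.52 in converted and 2.63 in resident macrophages on the log2 scale (edgeR adjusted p = 1.22e-05 and 9.08e-06). Pfkl made up 88.04% ± 1.15 in converted, 85.9% ± 0.2702 in resident and 54.5% ± 5.73 in monocyte-derived libraries of the phosphofructokinase signal per length, and Pfkp 9.05% ± 1.44 in converted, 10.7% ± 0.137 in resident and 44.96% ± 5.63 in monocyte-derived libraries. The family as a whole summed to 107 ± 4.97 CPM per kb in converted, 99.6 ± 0.518 in resident and 93.4 ± 4.12 in monocyte-derived libraries. These sums lay much closer together than the shares of Pfkl and Pfkp. Their order depends on the length scaling. In CPM alone the family summed to 767 ± 32.2 in converted, 725 ± 4.04 in resident and 905 ± 74.0 in monocyte-derived libraries. Part of the Pfkp exons, 5.58% of their length, overlaps Pitrm1 on the other strand, and reads of this stretch could not be told apart without a stated strand setting.

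**Figure D2:**
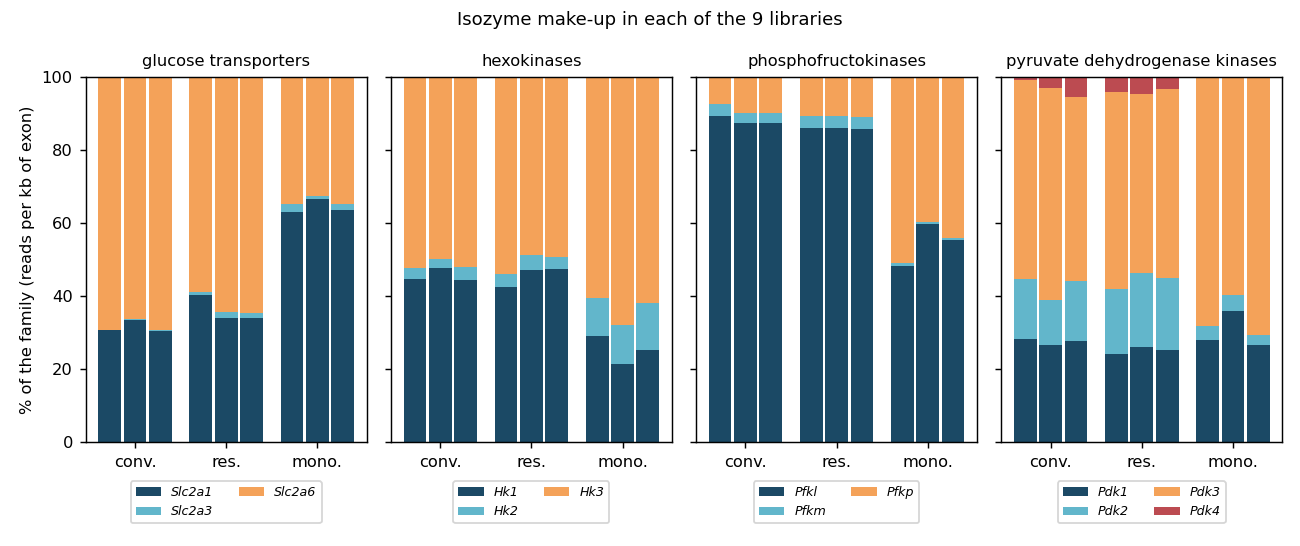
Share of each isozyme in its family, in percent of reads per kb of exon, as stacked bars for each of the 3 converted, 3 resident and 3 monocyte-derived libraries. Pfkl takes most of the phosphofructokinase bars in converted and resident libraries and about as much as Pfkp in monocyte-derived ones, Hk1 and Pdk2 are larger and Slc2a1 and Hk2 smaller in converted and resident libraries.

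The Pfkfb enzymes make and remove fructose 2,6-bisphosphate, the strongest activator of phosphofructokinase. Pfkfb4 was the main form and had 100.03, 117 and 113 CPM in converted, 118, 118 and 109 CPM in resident and 206, 189 and 190.4 CPM in monocyte-derived libraries. Pfkfb4 gave a log2 fold change of -0.83 ± 0.08 in converted and -0.76 ± 0.08 in resident macrophages (edgeR adjusted p = 2.67e-05 and 4.57e-05). Pfkfb3, the form with the most one-sided kinase activity and a known target of HIF-1α, had 13.01, 16.6 and 14.4 CPM in converted, 23.2, 22.3 and 21.4 CPM in resident and 26.4, 29.8 and 36.6 CPM in monocyte-derived libraries. For Pfkfb3 the 3 groups were in steps without overlap, converted lowest. Pfkfb3 showed a log2 fold change of -1.08 ± 0.14 in converted and -0.47 ± 0.14 in resident macrophages (edgeR adjusted p = 0.00016 and 0.0172). The Pfkfb3 call in resident macrophages was lost without resident library 2 or 3 or monocyte-derived library 3 (edgeR adjusted p = 0.0536 to 0.0659). Pfkfb2, at 3.64, 2.36 and 3.71 CPM in converted, 3.91, 3.83 and 2.79 CPM in resident and 1.33, 1.97 and 1.55 CPM in monocyte-derived libraries, rose in both. For Pfkfb2 the log2 fold change was 0.9997 ± 0.28 in converted and 1.11 ± 0.28 in resident macrophages (edgeR adjusted p = 0.0125 and 0.00713). Pfkfb1, an X-linked gene, had 1.94, 2.84 and 2.36 CPM in converted, 1.595, 2.098 and 2.398 CPM in resident and 1.49, 2.37 and 3.63 CPM in monocyte-derived libraries and passed in neither, with overlapping groups. Pfkfb4 made up 88.3% ± 0.186 in converted, 85.7% ± 0.258 in resident and 88.996% ± 2.24 in monocyte-derived libraries of the family per length, so the make-up of this family differed far less than that of phosphofructokinase.

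From aldolase to pyruvate kinase 7 of 9 genes fell in both comparisons and none rose, 77.8% called beside 50.7% of all genes in each comparison (24.9% lower). Aldoa, which splits fructose bisphosphate, had 769, 669 and 727 CPM in converted, 702, 695 and 666 CPM in resident and 1472, 1673 and 1677 CPM in monocyte-derived libraries. Against monocyte-derived macrophages, Aldoa had a log2 fold change of -1.16 ± 0.09 in converted and -1.23 ± 0.09 in resident macrophages (edgeR adjusted p = 4.26e-06 and 3.2e-06). Tpi1, which interconverts both triose phosphates, had 387, 377 and 365 CPM in converted, 386, 370.1 and 349.7 CPM in resident and 848, 985 and 933 CPM in monocyte-derived libraries. For Tpi1 the log2 fold change was -1.29 ± 0.08 in converted and -1.32 ± 0.08 in resident macrophages (edgeR adjusted p = 1.36e-06 and 1.34e-06). Pgk1, the first ATP-forming enzyme, had 130.3, 128 and 129 CPM in converted, 123, 116 and 127 CPM in resident and 290.2, 312 and 304 CPM in monocyte-derived libraries. Pgk1 gave a log2 fold change of -1.22 ± 0.07 in converted and -1.30 ± 0.07 in resident macrophages (edgeR adjusted p = 5.71e-07 and 4.17e-07). These 3 enzymes were each more than 2-fold lower in both populations, and the spread within groups was narrow. Pgk1 lies on chromosome X, and Xist separates the groups in the same way; its part in the Pgk1 difference was not tested. Pkm, the pyruvate kinase of most adult tissues, had 1146, 1146 and 1131 CPM in converted, 1093, 1084 and 1119 CPM in resident and 2299, 2100.1 and 2014 CPM in monocyte-derived libraries. Pkm showed a log2 fold change of -0.91 ± 0.08 in converted and -0.96 ± 0.08 in resident macrophages (edgeR adjusted p = 1.03e-05 and 7.12e-06). Eno1, the most abundant enolase, had a smaller difference, with 1854, 1844 and 1733 CPM in converted, 1774, 1734 and 1789 CPM in resident and 2447, 2437 and 2263 CPM in monocyte-derived libraries. Against monocyte-derived macrophages, Eno1 had a log2 fold change of -0.40 ± 0.08 in converted and -0.43 ± 0.08 in resident macrophages (edgeR adjusted p = 0.00185 and 0.00115). Its minor relative Eno3, at 2.59, 2.15 and 2.48 CPM in converted, 2.75, 1.89 and 2.105 CPM in resident and 4.801, 5.49 and 6.799 CPM in monocyte-derived libraries, fell by 1.24 and 1.34 on the log2 scale (edgeR adjusted p = 0.00128 and 0.000847). Aldoc, a minor aldolase, had 5.53, 6.57 and 3.77 CPM in converted, 11.1, 12.1 and 8.27 CPM in resident and 26.3, 11.9 and 17.7 CPM in monocyte-derived libraries. Aldoc was lower in converted macrophages with a log2 fold change of -1.81 ± 0.31 without overlap (edgeR adjusted p = 0.000817), whereas the resident change of -0.83 ± 0.30 (adjusted p = 0.0389) came from overlapping groups. The resident call of Aldoc was lost without converted library 1, any one resident library, or monocyte-derived library 1 or 3 (adjusted p = 0.0554 to 0.136).

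Gapdh and Pgam1 were the exceptions in this stretch of the pathway. Gapdh, the NADH-forming dehydrogenase often used as a reference transcript, had 1024, 903 and 917 CPM in converted, 1023, 919.9 and 1014 CPM in resident and 926, 952 and 916 CPM in monocyte-derived libraries. Its groups overlapped, and its log2 fold changes were 0.03 ± 0.08 in converted and 0.08 ± 0.08 in resident macrophages (edgeR adjusted p = 0.817 and 0.435), with 95% intervals of -0.16 to 0.21 and -0.10 to 0.27. The converted difference of Gapdh was -0.03 when libraries were scaled by size alone, so its sign depends on the scaling. Gapdh has 87 near-identical copies in the annotation, which held 10.1% of the reads summed over gene and copies, and its reads could be split among them. Pgam1, the mutase before enolase, had 704, 630.2 and 736 CPM in converted, 795, 772 and 706 CPM in resident and 698, 989 and 930.2 CPM in monocyte-derived libraries. For Pgam1 the log2 fold change was -0.34 ± 0.13 in converted and -0.20 ± 0.13 in resident macrophages (edgeR adjusted p = 0.0503 and 0.216), and passed in neither. Monocyte-derived library 1 was the low one for Pgam1, and without it both changes were called lower (edgeR adjusted p = 0.000827 in converted and 0.0062 in resident macrophages).

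**Figure D3:**
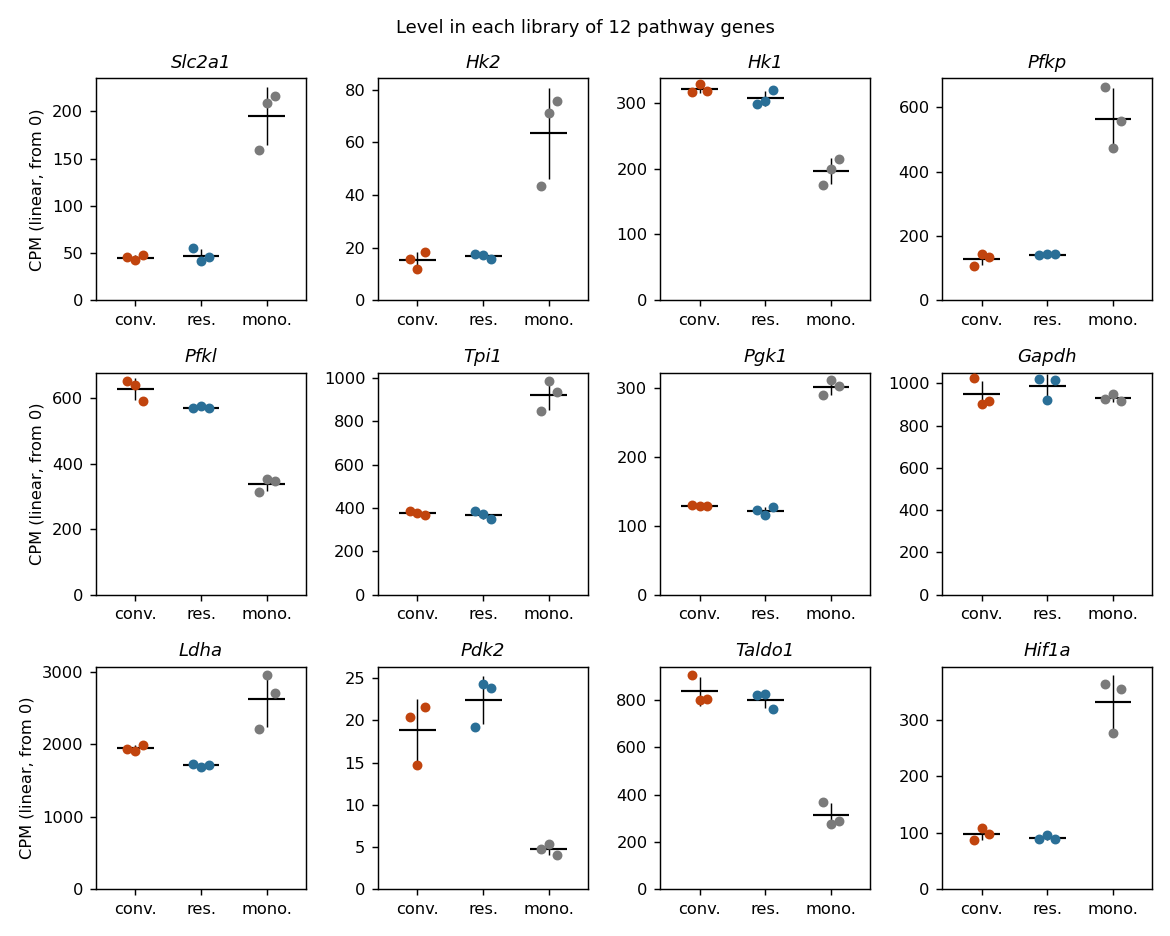
CPM of 12 members in each of the 3 converted (red), 3 resident (blue) and 3 monocyte-derived (grey) libraries, on linear axes from 0; horizontal lines are means and vertical lines SD. Slc2a1, Hk2, Pfkp, Tpi1, Pgk1, Ldha and Hif1a are lower and Hk1, Pfkl, Pdk2 and Taldo1 higher in all converted and resident libraries than in any monocyte-derived one, and Gapdh overlaps.

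Of the 4 genes of lactate formation and transport, 2 were called lower in converted and 3 in resident macrophages, and none higher. That is 50% and 75% called, beside 50.7% of all genes in each comparison (24.9% lower), so the converted share was at the background. Ldha, the muscle-type subunit of lactate dehydrogenase that favours lactate, had 1937, 1911 and 1993 CPM in converted, 1726, 1685 and 1707 CPM in resident and 2205, 2952 and 2707 CPM in monocyte-derived libraries. It was the most abundant member per length in every group, at 588 CPM per kb in converted, 515 in resident and 792 in monocyte-derived libraries, and its log2 fold change was -0.43 ± 0.11 in converted and -0.62 ± 0.11 in resident macrophages (edgeR adjusted p = 0.00729 and 0.000905). Slc16a3 (MCT4), the exporter of highly glycolytic cells, had 223, 212 and 216 CPM in converted, 265, 263 and 224 CPM in resident and 380.0, 449 and 414 CPM in monocyte-derived libraries. Slc16a3 gave a log2 fold change of -0.93 ± 0.09 in converted and -0.72 ± 0.09 in resident macrophages (edgeR adjusted p = 2.5e-05 and 0.00013). Both genes were lower in every converted and resident library than in any monocyte-derived library. Slc16a1 (MCT1), which carries lactate either way, had 142, 221 and 150.4 CPM in converted, 139, 153 and 129 CPM in resident and 193, 187 and 250.4 CPM in monocyte-derived libraries. Slc16a1 showed a log2 fold change of -0.30 ± 0.17 in converted and -0.58 ± 0.17 in resident macrophages (edgeR adjusted p = 0.184 and 0.0187). Converted library 2 was high in Slc16a1: without it the converted difference was called (edgeR adjusted p = 0.0149), and the resident call was lost without resident library 1 or 3 or monocyte-derived library 3 (adjusted p = 0.0583 to 0.0719). Ldhb, the heart-type subunit, was near the detection limit at 1.69, 4.36 and 3.21 CPM in converted, 3.63, 3.72 and 3.92 CPM in resident and 0.853, 3.295 and 1.81 CPM in monocyte-derived libraries, and passed in neither comparison. Monocyte-derived library 2 was the highest of its group for Ldhb, and without it both differences were called higher (adjusted p = 0.0455 in converted and 0.0187 in resident macrophages).

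The pyruvate dehydrogenase kinases, which hold pyruvate back from oxidation, shifted in make-up. Pdk2, a widespread form, had 20.4, 14.7 and 21.6 CPM in converted, 19.2, 24.3 and 23.8 CPM in resident and 4.69, 5.32 and 4.08 CPM in monocyte-derived libraries and rose by 2.0044 in converted and 2.25 in resident macrophages (log2, SE 0.19 each, edgeR adjusted p = 1.61e-05 and 7.32e-06). Pdk4, the form known to rise with fasting and fat use, had 1.05, 4.098 and 8.05 CPM in converted, 4.84, 6.35 and 4.45 CPM in resident and 0, 0 and 0.194 CPM in monocyte-derived libraries, with 242 reads in all converted, 300 in all resident and 3 in all monocyte-derived libraries. Against these 3 reads the ratio was 73.0 in converted (95% counting interval 24.7 to 357) and 89.3 in resident macrophages (30.3 to 435), intervals that cover counting error only. The 3 reads all came from monocyte-derived library 3, without which no ratio can be given. The converted ratio was 43.5 without converted library 3, and without monocyte-derived library 1 or 2 it was 46.4 and 48.5 in converted and 56.8 and 59.3 in resident macrophages. Converted libraries spread widely in Pdk4, all of them above every monocyte-derived library. Pdk3, an X-linked form, had 54.2, 56.1 and 53.4 CPM in converted, 47.2, 48.2 and 51.4 CPM in resident and 66.4, 58.2 and 81.8 CPM in monocyte-derived libraries and fell by 0.33 in converted and 0.49 in resident macrophages on the log2 scale (edgeR adjusted p = 0.0361 and 0.0058). Its converted call was lost without any one converted or resident library and without monocyte-derived library 3 (adjusted p = 0.0549 to 0.113). Pdk1, a known HIF-1α target, had 85.03, 77.9 and 88.7 CPM in converted, 63.9, 77.8 and 76.2 CPM in resident and 82.7, 107 and 93.5 CPM in monocyte-derived libraries. Against monocyte-derived macrophages, Pdk1 had a log2 fold change of -0.17 ± 0.11 in converted and -0.38 ± 0.11 in resident macrophages (edgeR adjusted p = 0.243 and 0.0192). The resident call of Pdk1 was lost without resident library 1 or monocyte-derived library 2 (adjusted p = 0.0857 and 0.0711). Per length, Pdk2 made up 15.1% ± 2.44 in converted, 19.1% ± 1.18 in resident and 3.72% ± 0.8002 in monocyte-derived libraries of the kinase signal, while the family sum was 39.3 ± 1.86 CPM per kb in converted, 37.0 ± 2.55 in resident and 40.5 ± 4.19 in monocyte-derived libraries.

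Fbp1, the gluconeogenic bisphosphatase that works against phosphofructokinase, had 3.74, 1.47 and 2.42 CPM in converted, 19.97, 13.5 and 15.6 CPM in resident and 45.4, 106 and 147 CPM in monocyte-derived libraries. It was the member with the steepest order of groups, converted below resident below monocyte-derived without overlap. For Fbp1 the log2 fold change was -5.28 ± 0.49 in converted and -2.61 ± 0.41 in resident macrophages (edgeR adjusted p = 2.13e-05 and 0.000582). Monocyte-derived library 1 held the least Fbp1 of its group, and the spread of that group was wide.

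Of the 7 pentose phosphate enzymes 4 rose in both comparisons, Pgls fell in both, Rpe fell in resident macrophages and Tkt passed in neither. The share called was 71.4% in converted and 85.7% in resident macrophages, beside 50.7% of all genes in each comparison (25.8% and 25.7% higher). The median log2 fold change of the 7 was 0.23 in converted and 0.27 in resident macrophages. In the oxidative arm, G6pdx, the entry enzyme and first source of NADPH, had 290.1, 292 and 266 CPM in converted, 267, 273 and 255 CPM in resident and 211, 210.3 and 224 CPM in monocyte-derived libraries. G6pdx gave a log2 fold change of 0.40 ± 0.07 in converted and 0.30 ± 0.07 in resident macrophages (edgeR adjusted p = 0.00119 and 0.00592). Pgd, the second NADPH-forming dehydrogenase, had 397, 406 and 395 CPM in converted, 424, 413 and 399 CPM in resident and 351, 342 and 329 CPM in monocyte-derived libraries. Pgd showed a log2 fold change of 0.23 ± 0.07 in converted and 0.27 ± 0.07 in resident macrophages (edgeR adjusted p = 0.0164 and 0.00669). Both increases were under 1.5-fold although no library overlapped, and the Pgd call in converted macrophages was lost without monocyte-derived library 3 (edgeR adjusted p = 0.0549). Pgls, the lactonase between them, had 63.3, 58.05 and 65.7 CPM in converted, 71.5, 68.9 and 67.6 CPM in resident and 101, 88.9 and 90.2 CPM in monocyte-derived libraries. Against monocyte-derived macrophages, Pgls had a log2 fold change of -0.58 ± 0.08 in converted and -0.43 ± 0.08 in resident macrophages (edgeR adjusted p = 0.000248 and 0.00168). G6pdx is X-linked too, and the part of sex in its difference was not tested. Of the G6pdx exon length, 13.6% overlaps Ikbkg on the opposite strand. Of Pgls, 20.6% overlaps Fam129c on the same strand, which had 328 reads over all libraries against 12359 for Pgls.

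In the non-oxidative arm Taldo1, the transaldolase that returns carbon to glycolysis, stood out with 909, 799 and 805 CPM in converted, 821, 825 and 762 CPM in resident and 370.5, 274 and 289.9 CPM in monocyte-derived libraries. Its log2 fold change was 1.43 ± 0.12 in converted and 1.36 ± 0.12 in resident macrophages (edgeR adjusted p = 7.74e-06 and 1.03e-05). Every converted and resident library held more than 2-fold the Taldo1 level of any monocyte-derived library. Rpia, which forms ribose 5-phosphate, had 9.92, 11.2 and 5.57 CPM in converted, 10.3, 10.96 and 8.08 CPM in resident and 3.31, 4.51 and 3.43 CPM in monocyte-derived libraries. For Rpia the log2 fold change was 1.25 ± 0.27 in converted and 1.38 ± 0.27 in resident macrophages (edgeR adjusted p = 0.00339 and 0.00191). Tkt, the transketolase that acts beside transaldolase, had 448, 447 and 401 CPM in converted, 423, 411 and 412 CPM in resident and 468, 448 and 438 CPM in monocyte-derived libraries. Tkt gave a log2 fold change of -0.06 ± 0.07 in converted and -0.12 ± 0.07 in resident macrophages (edgeR adjusted p = 0.503 and 0.203). Taldo1 and Tkt are partners in the same arm, and per length Taldo1 was at 386 CPM per kb in converted, 369.7 in resident and 144 in monocyte-derived libraries, beside 58.7 CPM per kb in converted, 56.5 in resident and 61.4 in monocyte-derived libraries for Tkt. Rpe, the epimerase, had 59.8, 53.1 and 50.9 CPM in converted, 42.3, 44.9 and 39.9 CPM in resident and 49.1, 59.4 and 60.8 CPM in monocyte-derived libraries. Rpe showed a log2 fold change of -0.05 ± 0.11 in converted and -0.41 ± 0.11 in resident macrophages (edgeR adjusted p = 0.739 and 0.00906). Of the Rpe exons 17.9% overlap Kansl1l on the opposite strand.

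Hif1a, the oxygen-sensitive subunit that switches on much of glycolysis, was itself lower. It had 87.6, 108 and 97.9 CPM in converted, 89.1, 95.98 and 88.1 CPM in resident and 364, 277 and 355 CPM in monocyte-derived libraries, with no overlap between these. Against monocyte-derived macrophages, Hif1a had a log2 fold change of -1.76 ± 0.12 in converted and -1.87 ± 0.12 in resident macrophages (edgeR adjusted p = 1.9e-06 and 1.54e-06). HIF-1α is regulated chiefly at the protein level, so its transcript is not a measure of its activity. Of 19 listed HIF targets outside glycolysis, 15 were called lower and 2 higher in converted macrophages and 12 lower and 3 higher in resident ones, 89.5% and 78.9% called beside 50.7% of all genes in each comparison (24.9% lower in both). Their median log2 fold change was -1.98 in converted and -1.31 in resident macrophages, against -0.01 and 0.00 over all genes. This list too was chosen with earlier results of these data known, so its shares are a description only. Ndrg1, a stress-response gene, had 2.49, 2.99 and 2.03 CPM in converted, 2.201, 2.203 and 1.71 CPM in resident and 53.4, 56.8 and 67.5 CPM in monocyte-derived libraries. For Ndrg1 the log2 fold change was -4.56 ± 0.17 in converted and -4.86 ± 0.18 in resident macrophages (edgeR adjusted p = 6.12e-08 and 4.96e-08). Ak4, a mitochondrial adenylate kinase, had 0.498, 0.263 and 0.394 CPM in converted, 0.2201, 0.367 and 0.245 CPM in resident and 15.6, 29.2 and 34.2 CPM in monocyte-derived libraries. Ak4 gave a log2 fold change of -6.06 ± 0.38 in converted and -6.53 ± 0.39 in resident macrophages (edgeR adjusted p = 1.14e-06 and 1.06e-06). Ddit4, which restrains mTORC1, had 1.296, 1.16 and 0.957 CPM in converted, 4.24, 4.14 and 3.67 CPM in resident and 88.9, 25.4 and 34.9 CPM in monocyte-derived libraries. Ddit4 showed a log2 fold change of -5.44 ± 0.51 in converted and -3.63 ± 0.44 in resident macrophages (edgeR adjusted p = 2.25e-05 and 0.000118). In these 3 targets every monocyte-derived library stood several-fold above every other library. Car12, a membrane carbonic anhydrase, ran the other way, at 141, 89.99 and 150.0 CPM in converted, 118, 117 and 116 CPM in resident and 0.9601, 2.54 and 1.49 CPM in monocyte-derived libraries. Car12 gave a log2 fold change of 6.25 ± 0.31 in converted and 6.14 ± 0.31 in resident macrophages (edgeR adjusted p = 3.74e-07 and 4.56e-07). Of 9 genes that control HIF, 4 were lower and 2 higher in each comparison, 66.7% beside 50.7% of all genes, the higher ones near the background share. The oxygen-sensing hydroxylases Egln1 and Egln3, which mark HIF for decay and are themselves known HIF targets, fell: Egln1 had 50.7, 43.4 and 51.4 CPM in converted, 51.9, 44.2 and 46.8 CPM in resident and 155, 175 and 164 CPM in monocyte-derived libraries. Egln1 showed a log2 fold change of -1.76 ± 0.10 in converted and -1.79 ± 0.10 in resident macrophages (edgeR adjusted p = 5.39e-07 and 5.44e-07). Egln3 had 3.34, 4.52 and 7.31 CPM in converted, 16.7, 13.2 and 9.59 CPM in resident and 20.1, 35.5 and 36.97 CPM in monocyte-derived libraries. Against monocyte-derived macrophages, Egln3 had a log2 fold change of -2.61 ± 0.34 in converted and -1.23 ± 0.32 in resident macrophages (edgeR adjusted p = 0.000185 and 0.00981). Epas1, the HIF-2α subunit, rose, at 63.8, 61.4 and 93.2 CPM in converted, 95.1, 80.6 and 88.01 CPM in resident and 7.63, 36.7 and 23.4 CPM in monocyte-derived libraries. For Epas1 the log2 fold change was 1.69 ± 0.43 in converted and 1.96 ± 0.43 in resident macrophages (edgeR adjusted p = 0.00886 and 0.00417). Neutrophil markers were higher in monocyte-derived libraries too, as given above, all 7 tested being called lower in converted and in resident macrophages. With their summed level as a covariate in the edgeR fit, 1 of the 40 members was called higher and 3 lower in converted macrophages, and 1 higher and 4 lower in resident ones; since this level does not overlap between these groups and the monocyte-derived one, level and group cannot be told apart.

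**Figure D4:**
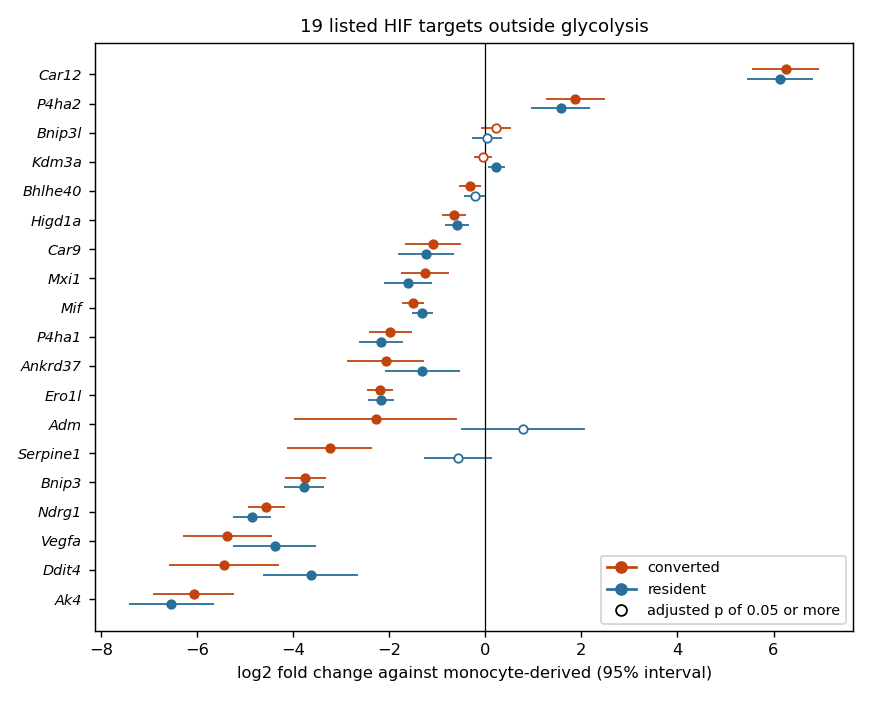
Log2 fold changes with 95% intervals of the 19 listed HIF targets in converted (red) and resident (blue) against monocyte-derived macrophages, sorted by the converted value; open points have an adjusted p of 0.05 or more. Most points lie to the left of 0, with Ak4, Ddit4 and Ndrg1 among the lowest, and Car12 is far to the right.

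HIF binds the core ACGTG or GCGTG, and CACGTG is the E-box read by MYC and the carbohydrate-response factors, so the 250 bases before each annotated start were searched for these letters on both strands; CACGTG holds ACGTG on each strand and counts there as 2 matches.
RefSeq promoters (GRCm38.p6) were matched for 39 of 40 members, with Slc2a3 not in the table, in 59 windows.
ACGTG stood in 33.9% of the members' windows, against 16.6% of all 32851 windows and 17.8% of those of protein-coding genes.
GCGTG stood in 54.2%, against 28.2% and 33.8%, and CACGTG in 11.9%, against 6.02% and 6.63%.
By direction, ACGTG was found in 5 of 18 windows of genes higher in both and in 13 of 28 of genes lower in both. GCGTG was found in 11 of 18 and in 13 of 28. Some windows of the same gene overlap, as in Aldoa, Eno1 and Pfkm, and hold the same match, so windows are not independent. Counted by gene, ACGTG was found in 3 of 10 higher and 11 of 20 lower members, and GCGTG in 9 of 10 and 10 of 20. A difference by direction was not tested.
Either core stood in 14 of 18 windows of genes higher in both and in 23 of 28 of genes lower in both. The background was 38.6% of all windows and 44% of those of protein-coding genes. Counted by gene, either core stood in all 10 members higher in both and in 17 of 20 lower in both, against 41.5% of all genes. A gene with more windows has more chances of a match. The 10 higher members had 18 windows and the 20 lower ones 28, beside 32851 windows for all 27025 genes. The 41.5% also includes genes that do not code for protein, so the shares by gene are not on an equal footing.
Shown here, to give windows with and without a core in either direction, are Hk2, Pgk1, Ldha and Fbp1, which were lower in both, and Taldo1 and Pdk2, which were higher in both; they were chosen after their letters were seen, capitals mark ACGTG or GCGTG on either strand, and none of the windows overlaps an annotated exon.
The Hk2 window is chr6:82774455-82774704 on the minus strand, that of Pgk1 chrX:106186850-106187099 (plus), that of Ldha chr7:46845554-46845803 (plus), that of Fbp1 chr13:62888283-62888532 (minus), that of Taldo1 chr7:141391910-141392159 (plus) and that of Pdk2 chr11:95041372-95041621 (minus), each written 5′ to 3′ in the direction of the gene.

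Hk2: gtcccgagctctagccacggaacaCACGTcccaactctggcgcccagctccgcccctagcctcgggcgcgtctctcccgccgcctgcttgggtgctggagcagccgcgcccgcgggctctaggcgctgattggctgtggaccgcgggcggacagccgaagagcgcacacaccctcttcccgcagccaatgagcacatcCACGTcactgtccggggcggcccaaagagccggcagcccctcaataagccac
Pgk1: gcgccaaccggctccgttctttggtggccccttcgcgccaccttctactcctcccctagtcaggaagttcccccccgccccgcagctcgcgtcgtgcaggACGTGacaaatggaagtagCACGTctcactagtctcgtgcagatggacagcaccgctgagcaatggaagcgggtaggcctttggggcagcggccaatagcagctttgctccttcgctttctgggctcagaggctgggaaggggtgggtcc
Ldha: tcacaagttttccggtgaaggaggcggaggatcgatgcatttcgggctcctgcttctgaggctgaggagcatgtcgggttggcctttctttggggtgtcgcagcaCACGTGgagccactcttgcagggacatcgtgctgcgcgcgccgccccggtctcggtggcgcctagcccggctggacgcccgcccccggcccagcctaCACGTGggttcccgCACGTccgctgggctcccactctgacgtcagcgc
Fbp1: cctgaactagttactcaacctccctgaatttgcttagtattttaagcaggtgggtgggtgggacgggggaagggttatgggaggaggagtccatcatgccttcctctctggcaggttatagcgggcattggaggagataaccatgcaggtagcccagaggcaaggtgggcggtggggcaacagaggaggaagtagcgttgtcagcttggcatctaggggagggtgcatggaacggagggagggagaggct
Taldo1: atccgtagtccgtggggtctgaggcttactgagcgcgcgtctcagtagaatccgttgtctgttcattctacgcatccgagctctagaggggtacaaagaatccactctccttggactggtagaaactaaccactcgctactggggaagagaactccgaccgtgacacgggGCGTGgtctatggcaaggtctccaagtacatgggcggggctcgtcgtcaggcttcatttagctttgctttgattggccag
Pdk2: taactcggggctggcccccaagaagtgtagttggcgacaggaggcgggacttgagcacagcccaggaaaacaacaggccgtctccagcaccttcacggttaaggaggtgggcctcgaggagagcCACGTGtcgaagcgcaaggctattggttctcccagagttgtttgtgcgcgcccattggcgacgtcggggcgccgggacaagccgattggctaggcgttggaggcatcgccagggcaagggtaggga

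The Ldha window held 5 matches of ACGTG, from a pair of CACGTG boxes and 1 single core, those of Hk2 and Pgk1 held 2 each, and that of Fbp1 held neither core. That of Taldo1 held 1 GCGTG and no ACGTG, and that of Pdk2 held 1 CACGTG box. Ldha has another window, at chr7:46846832-46847081, with 1 GCGTG and no ACGTG, and Pdk2 another, at chr11:95040876-95041125, with neither. Tpi1 and Gpi1, lower in both, had no core in their single windows. A match of letters is a description of the sequence and not a bound site, and binding was not measured here.

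Of 123 other genes around the pathway, in 11 lists by role, 110 could be tested: 35 were higher and 39 lower in converted macrophages, and 36 and 39 in resident ones, 67.3% and 68.2% called beside 50.7% of all genes in each comparison, about evenly in both directions. The lists are short and were chosen with earlier results of these data known, and each count below stands against that background. Of 11 genes of glycogen turnover tested, 6 were higher and 1 lower in each comparison (63.6% called). Pygl, the liver-type glycogen phosphorylase that frees glucose phosphate, had 609, 539.8 and 592 CPM in converted, 495, 534 and 488 CPM in resident and 55.8, 74.9 and 68.2 CPM in monocyte-derived libraries. Against monocyte-derived macrophages, Pygl had a log2 fold change of 3.13 ± 0.12 in converted and 2.93 ± 0.12 in resident macrophages (edgeR adjusted p = 5.87e-08 and 7.87e-08). Gbe1, the branching enzyme, had 154, 140.2 and 148 CPM in converted, 120.1, 124 and 107 CPM in resident and 30.2, 35.6 and 32.5 CPM in monocyte-derived libraries. For Gbe1 the log2 fold change was 2.17 ± 0.09 in converted and 1.84 ± 0.09 in resident macrophages (edgeR adjusted p = 1.07e-07 and 2.92e-07). The synthase Gys1 fell by 1.29 in converted and 1.55 in resident macrophages on the log2 scale. Pygl and Gbe1 were thus several-fold higher and Gys1 lower in both populations, and 4 of the 11 genes were not called. Around pyruvate 9 of 14 genes were higher and 2 lower in converted macrophages, and 8 and 3 in resident ones (78.6% called in each). Pcx, which feeds pyruvate into the citric acid cycle as oxaloacetate, had 16.000, 17.1 and 12.9 CPM in converted, 13.1, 11.01 and 12.5 CPM in resident and 2.08, 3.53 and 3.04 CPM in monocyte-derived libraries. Pcx gave a log2 fold change of 2.42 ± 0.21 in converted and 2.09 ± 0.21 in resident macrophages (edgeR adjusted p = 9.82e-06 and 2.64e-05). Emb, a chaperone of the lactate carriers, had 0.897, 1.63 and 1.01 CPM in converted, 6.11, 4.301 and 7.05 CPM in resident and 234, 135 and 201 CPM in monocyte-derived libraries, with converted libraries lowest and no overlap between the 3 groups. Its log2 fold change was -7.32 ± 0.32 in converted and -5.02 ± 0.27 in resident macrophages (edgeR adjusted p = 1.73e-07 and 7.08e-07). Of 12 genes that make or use NADPH, 7 were higher in each comparison, and 2 fell in converted and 3 in resident macrophages (75.0% and 83.3% called). Cybb, the catalytic subunit of the phagocyte oxidase, had 1094, 1014 and 1142 CPM in converted, 789, 814 and 856 CPM in resident and 120.2, 196 and 190.5 CPM in monocyte-derived libraries. Cybb showed a log2 fold change of 2.68 ± 0.17 in converted and 2.28 ± 0.17 in resident macrophages (edgeR adjusted p = 1.31e-06 and 3.65e-06). Idh1, the cytosolic NADPH-forming dehydrogenase, had 1197, 1063 and 1072 CPM in converted, 930.2, 1003 and 875 CPM in resident and 222, 389 and 371 CPM in monocyte-derived libraries. Against monocyte-derived macrophages, Idh1 had a log2 fold change of 1.76 ± 0.19 in converted and 1.52 ± 0.18 in resident macrophages (edgeR adjusted p = 4.03e-05 and 0.000103). Malic enzyme Me1, another NADPH source, was at 12.1 to 32.9 CPM in converted, 15.03 to 26.2 CPM in resident and 0 to 0.752 CPM in monocyte-derived libraries.

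Branches that draw on glycolytic intermediates were divided. Of 8 genes of serine and glycerol phosphate synthesis 1 was higher and 4 lower in converted macrophages, and 1 and 5 in resident ones (62.5% and 75.0% called). Phgdh, which takes 3-phosphoglycerate into serine, had 0.847, 2.99 and 0.957 CPM in converted, 14.1, 13.7 and 12.8 CPM in resident and 290.2, 166 and 142 CPM in monocyte-derived libraries. Phgdh gave a log2 fold change of -6.96 ± 0.45 in converted and -3.88 ± 0.36 in resident macrophages (edgeR adjusted p = 2.16e-06 and 2.41e-05), the 3 groups forming steps without overlap. Of 7 hexosamine genes 2 rose and 1 fell in each comparison, 42.9% called and so below the 50.7% of all genes. Gfpt2, an isoform of the entry enzyme, had 12.8, 16.7 and 16.5 CPM in converted, 12.7, 13.95 and 14.5 CPM in resident and 0.32003, 1.04 and 1.101 CPM in monocyte-derived libraries. For Gfpt2 the log2 fold change was 4.24 ± 0.32 in converted and 4.08 ± 0.32 in resident macrophages (edgeR adjusted p = 3.58e-06 and 4.92e-06). Among glucose-sensing genes 1 of 9 rose in each comparison, and 3 fell in converted and 4 in resident macrophages (44.4% and 55.6% called, near the background). Mlxipl, the carbohydrate-response factor ChREBP, had 146, 144 and 132 CPM in converted, 164, 133 and 129 CPM in resident and 14.3, 13.8 and 25.2 CPM in monocyte-derived libraries. Mlxipl had a log2 fold change of 2.99 ± 0.22 in converted and 3.00 ± 0.22 in resident macrophages (edgeR adjusted p = 4.26e-06 and 4.45e-06), whereas its relative Mlxip fell by 1.34 and 1.10 on the log2 scale. Arrdc4, a known target of these factors, had 20.5, 19.1 and 19.02 CPM in converted, 24.2, 24.96 and 24.6 CPM in resident and 274, 201 and 186 CPM in monocyte-derived libraries. For Arrdc4 the change was -3.50 ± 0.14 in converted and -3.16 ± 0.14 in resident macrophages (edgeR adjusted p = 8.65e-08 and 1.63e-07), the opposite direction to Mlxipl. In the pentose phosphate branch H6pd, the hexose 6-phosphate dehydrogenase of the endoplasmic reticulum, had 104, 105 and 109 CPM in converted, 103, 119.8 and 114 CPM in resident and 50.1, 40.9 and 29.9 CPM in monocyte-derived libraries. The log2 fold change of H6pd was 1.39 ± 0.16 in converted and 1.48 ± 0.16 in resident macrophages (edgeR adjusted p = 5.95e-05 and 4.06e-05). Of 8 listed genes of that branch 3 rose in each comparison, and 3 fell in converted and 2 in resident macrophages. That is 75% and 62.5% called, beside 50.7% of all genes in each comparison. Of 3 further hexose carriers tested, 2 were higher and 0 lower in each comparison (66.7% called). Of 10 further glycolytic genes tested, 0 were higher and 4 lower in converted macrophages, and 1 and 4 in resident ones. That is 40% and 50% called, below and near the 50.7% of all genes. In converted macrophages the carrier Slc2a8 rose by 1.41 and the phosphoglucomutase Pgm1 fell by 0.79 on the log2 scale.

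Between converted and resident macrophages the pathway differed little. Of the 40 members 3 were called, all lower in converted macrophages, which is 7.50% beside 6.07% of all genes tested (1.82% higher and 4.26% lower), and 6 had an unadjusted p under 0.05. The median log2 fold change was 0.03 for the members and 0.01 for all genes. Slc2a3, Fbp1 and Pfkfb3 were the 3, with converted against resident changes of -2.48 ± 0.36, -2.67 ± 0.47 and -0.60 ± 0.14 (edgeR adjusted p = 0.00505, 0.0121 and 0.036). Their library values are given above: Slc2a3 was 5.57-fold and Fbp1 6.38-fold lower, at under 5 CPM in every converted library, and Pfkfb3 1.52-fold lower. In all 3, resident libraries lay between converted and monocyte-derived ones without overlap. The Fbp1 call was lost without converted library 3 (adjusted p = 0.0553), and the Pfkfb3 call without converted library 1 or 3 or any one resident library (adjusted p = 0.103 to 0.149). Aldoc, at -0.98 ± 0.31 (adjusted p = 0.0984), was called without monocyte-derived library 1 or 2 (adjusted p = 0.0287 and 0.0484), and Rpe, at 0.37 ± 0.11 (adjusted p = 0.0789), without monocyte-derived library 1 (adjusted p = 0.0229). The count of all genes called in this comparison, 803, moved between 245 without resident library 3 and 1628 without monocyte-derived library 1. For 34 of the 37 members not called, the 95% interval of the difference lay within 2-fold either way, and for 26 within 1.5-fold; Aldoc, Ldhb and Pdk4 had wider intervals. Isozyme shares were close, with Pfkl at 88.0% in converted and 85.9% in resident libraries and Hk1 at 45.5% and 45.7%. Outside the members, Emb (-2.30 ± 0.33), Phgdh (-3.07 ± 0.44) and Egln3 (-1.39 ± 0.34) were lower and Prps1 (0.58 ± 0.11) and Mthfd1 (0.50 ± 0.10) higher in converted than in resident macrophages, among 7 of 110 genes called (6.36%). Egln3 was near the threshold (edgeR adjusted p = 0.0445), beside 0.00512 for Phgdh, 0.0162 for Prps1 and 0.0146 for Mthfd1. Whether these calls outside the members hold with a library left out was not followed. Markers of lymphoid and mast cells moved with this comparison: those called lower in converted macrophages were all 10 of B cells, 4 of 7 tested of T cells, 3 of 5 of NK cells and 3 of 4 of mast cells, with the sums given above. With the summed level of B-cell markers as a covariate, edgeR called 0 genes between converted and resident macrophages, with 1186 at an unadjusted p under 0.05, and the differences were -0.72 for Slc2a3, -2.86 for Fbp1 and 0.17 for Pfkfb3; the level does not overlap between both groups, so it cannot be told apart from them.

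**Figure D5:**
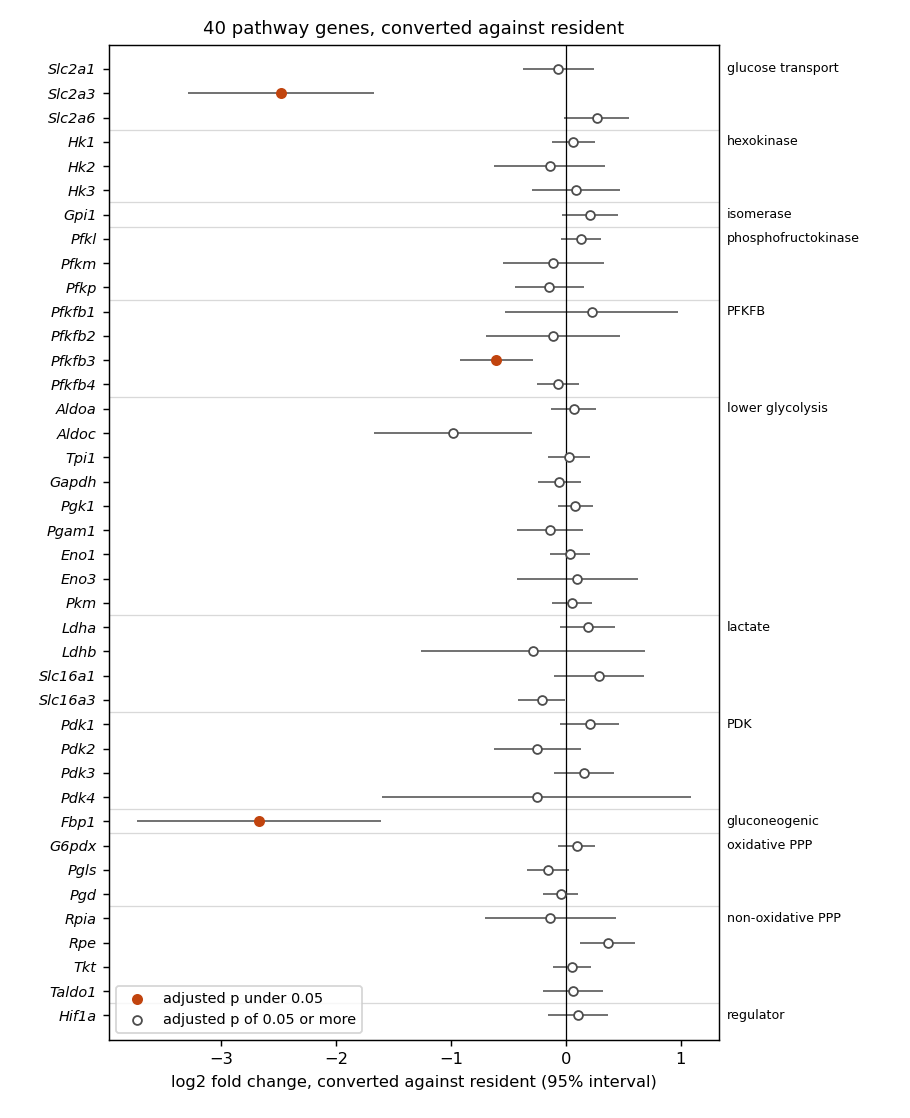
Log2 fold change with 95% interval of each of the 40 members in converted against resident macrophages, ordered by role; filled points have an adjusted p under 0.05. Slc2a3, Fbp1 and Pfkfb3 lie left of 0 and the other members lie close to it or have wide intervals.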

How the data were processed

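RNA-seq gene counts were analysed for 9 libraries in 3 groups. Raw read counts for each gene were deposited by the authors, who used TopHat2 2.1.0 and HTSeq on GRCm38, per the submitters' processing notes. Annotation, strand setting and treatment of multiply aligned reads: not given in the sources used here. According to the labels' protocols, RNA was taken from sorted cells with RNeasy kits and libraries were made with a TotalScript low-input kit, so PCR copies without molecular identifiers may be counted. Of 47729 identifiers 47224 matched GENCODE M21. The 5 summary lines per file were left out: reads in no gene were 4.02% to 5.66% and ambiguous reads 4.47% to 4.68%.

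The main test was edgeR 4.0.16 (in R 4.3.3) with filterByExpr (minimum count 10, total 15), TMM scaling, robust quasi-likelihood F-tests from a joint fit of the 9 libraries (6 residual degrees of freedom), and Benjamini-Hochberg adjustment over 13223 genes. The test was tested on simulated data with known changes. Levels are CPM on TMM-scaled library sizes; isozyme shares use CPM per kb of the exon union, and per longest transcript as an alternative. Copies were found with BLAST+ 2.17.0+ at 95% identity over at least 50% of the transcript. Alternatives were DESeq2 1.42.0, limma-voom (limma 3.58.1), other scalings and filters, a replicate block, B-cell and neutrophil marker levels as covariates, and each library left out.

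The members and lists were chosen with earlier results of these data known. Members called at 1.5-fold or more in any comparison, and their isozymes, are given in every library. From other lists, up to 3 called genes per comparison with the largest changes could be named if the higher group had at least 10 CPM. Not all genes that met this are named, Pdp1, Shpk and Uap1 among those left out. Same-numbered libraries did not deviate together (correlations of -0.0939 to 0.0651), so no pairing was used. No 2 libraries agreed within sampling noise.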

Additional observations from a re-analysis of the deposited data

How the results depend on the processing

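Over 21 settings, the 9 single libraries left out among them and the 2 marker covariates not, 28 of the 31 members called in converted against monocyte-derived macrophages stayed called wherever they were tested, 29 of 34 in resident against monocyte-derived, and 1 of 3 (Slc2a3) in converted against resident. Calls were lost for Hk3, Pdk3 and Pgd, for Hk3, Pfkfb3, Aldoc, Slc16a1 and Pdk1, and for Pfkfb3 and Fbp1. With 1 library left out, genes called ran between 5886 and 6845 in converted against monocyte-derived macrophages (members: 9 to 11 higher, 19 to 22 lower), between 5680 and 6875 in resident against monocyte-derived (10 to 11 and 20 to 25), and between 245 and 1628 in converted against resident (0 to 1 and 1 to 4).

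Between converted and resident macrophages, DESeq2 called 1315 genes, 1 member higher (Rpe) and 4 lower, and the 2-group fit 2067 genes, 1 member higher and 4 lower, against 803 genes, 0 members higher and 3 lower by edgeR with TMM, where 6 members had an unadjusted p under 0.05. With the replicate block 530 genes and 2 members lower were called; nothing in the labels ties equal numbers together. The cause of these shifts was not tested.

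With the neutrophil covariate, 495 genes and 1 member higher and 3 lower were called in converted against monocyte-derived macrophages, 710 genes, 1 and 4 in resident against monocyte-derived, and 475 genes in converted against resident. With the B-cell covariate, 226 genes, 1 member higher and 3 lower were called in resident against monocyte-derived, and 0 genes and 0 members in converted against resident. In converted against resident, signs were followed only for Slc2a3, Pfkfb3, Aldoc, Fbp1 and Rpe, here and with single libraries left out. Within that limit, signs turned as follows. Neutrophil covariate, converted against monocyte-derived: Slc2a6 0.17, Pfkfb1 0.32, Gapdh -0.23, Ldhb -0.80, Pdk3 0.21 and Rpia -0.92; resident against monocyte-derived: Slc2a3 0.60, Pfkfb1 0.049, Gapdh -0.14, Ldhb -0.36 and Rpia -0.49. B-cell covariate: Slc2a6 0.0040 in converted and Hk3 0.23, Pgam1 0.40 and Pdk1 0.15 in resident against monocyte-derived, and Pfkfb3 0.17 and Aldoc 0.18 in converted against resident. Limma-voom gave Pfkfb1 0.032 and library size alone Gapdh -0.031 in converted against monocyte-derived. The lowest adjusted p of these turned values was 0.577, for Rpia. With single libraries left out, signs turned only among uncalled members: converted against monocyte-derived, Slc2a6 ranged over -0.152 to 0.062, Pfkfb1 -0.327 to 0.304, Gapdh -0.027 to 0.065 and Rpe -0.137 to 0.010; resident against monocyte-derived, Pfkfb1 -0.553 to 0.078.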
